A study of Macaca mulatta with 30 samples.

Results

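The interleukin-1 and interleukin-6 receptor systems of the fetal lung and hippocampus were followed as 10 genes taken by symbol: the receptors IL1R1, IL1RL1 and IL18R1, the decoy receptor IL1R2, the co-receptor IL1RAP, the receptor antagonist IL1RN, the ligands IL1B and IL18, the IL-6 receptor IL6R and its signal-transducing partner IL6ST. A row was matched for 8 of the 10 in both count tables, out of 30246 rows in the lung table and 32386 in the hippocampus table. No row was matched to IL1B or IL18, which were therefore not analysed here. All 8 matched genes passed the read minimum in lung, where 17644 genes were tested. In hippocampus 7 passed among 17390 genes tested, and IL1RN did not.

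Interleukin-1 signals when IL1R1, with the ligand bound, recruits IL1RAP and then MYD88 and the IRAK kinases. IL1R2 binds the ligand but lacks the signalling domain, so it works as a decoy, and IL1RN occupies IL1R1 without activating it. IL1RL1 (also called ST2) is the receptor for interleukin-33 and pairs with the same IL1RAP, whereas IL18R1 pairs with IL18RAP to bind interleukin-18. Interleukin-6 binds IL6R, and the pair engages IL6ST (gp130), the subunit that LIFR and OSMR also use for leukemia inhibitory factor and oncostatin M. Glucocorticoids are known to suppress many inflammatory cytokines while raising several of the receptors that take part in ending or tuning inflammation, IL1R2 among them.

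Pregnant Rhesus macaques received an intramuscular injection of saline, of the clinical drug (Celestone, a mixture of betamethasone-phosphate and betamethasone-acetate, 0.25 mg/kg) or of betamethasone-acetate alone (Beta-Ac, 0.125 mg/kg), and RNA of their fetuses was sequenced. Whole lung came from 5 groups of 3 fetuses: saline controls, the clinical drug after 4 h and after 5 days, and Beta-Ac after 6 h and after 5 days. Hippocampus came from 3 groups of 5 fetuses, 5 days after treatment, and 9 animals gave both tissues. The labels give the lung animals as wild type at 124 to 130 days of gestation and the hippocampus animals as 130 to 136 days. For the 9 animals with both tissues the hippocampus labels give 131 to 136 days, so the labels of the tissues differ for the same fetuses. The lung labels give no time after injection for the controls. Those 3 fetuses also gave control hippocampus libraries, which are labelled 5 days. The 4 h and 6 h lung groups were thus compared with controls that carry a 5-day label in the other tissue. Each library was 1 fetus, so p-values reflect the spread between animals.

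The hippocampus groups are given here by library name (CTL, BAC and CEL), because the treatment and dose fields put the BAC libraries under the drug mixture and the CEL libraries under Beta-Ac alone. In the 3 animals of each name that also gave a lung library, the lung labels went with the library name. The totals ran from 14.1 to 45 M counted reads in lung and from 18.3 to 29.3 M in hippocampus. Levels are CPM values, read counts scaled to the size of each library with TMM factors. Since transcript lengths were not used, a CPM value compares libraries for 1 gene and not 1 gene with another.

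The labelled tissues carried their markers. Summed CPM of 7 lung epithelium markers was 8010 to 11900 in the lung controls, 13000 to 19200 at 4 h after the clinical drug, 10200 to 14600 at 6 h after Beta-Ac and 9530 to 13700 in the 5-day groups. At 4 h 1 of the 7, SFTPC, met the criteria given below and was higher, where 7.4% of all genes met them. The part of epithelial cells in the values that follow was not tested. Summed CPM of 6 neuron markers was 1970 to 3510 in the hippocampus libraries. Library CTL212 held 902 CPM of 3 choroid plexus markers, against 1.43 to 17.9 CPM in the other hippocampus libraries. Whole tissue was sequenced, so fewer cells of a type and less RNA per cell cannot be told apart.

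In the RefSeq annotation of assembly T2T-MMU8v2.0, 4 of the receptor genes lie in a row on chromosome 13. From MAP4K4 onward the order is IL1R2, IL1R1, IL1RL2, IL1RL1, IL18R1 and IL18RAP. The gene of the antagonist, IL1RN, is elsewhere on chromosome 13, next to IL1F10. IL1RAP is on chromosome 2, IL6R on chromosome 1 and IL6ST on chromosome 6. Of the 4 in the row, IL1R2, IL1RL1 and IL18R1 had their highest lung group mean 4 h after the clinical drug, and IL1R1 had it 6 h after Beta-Ac.

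**Figure D1:**
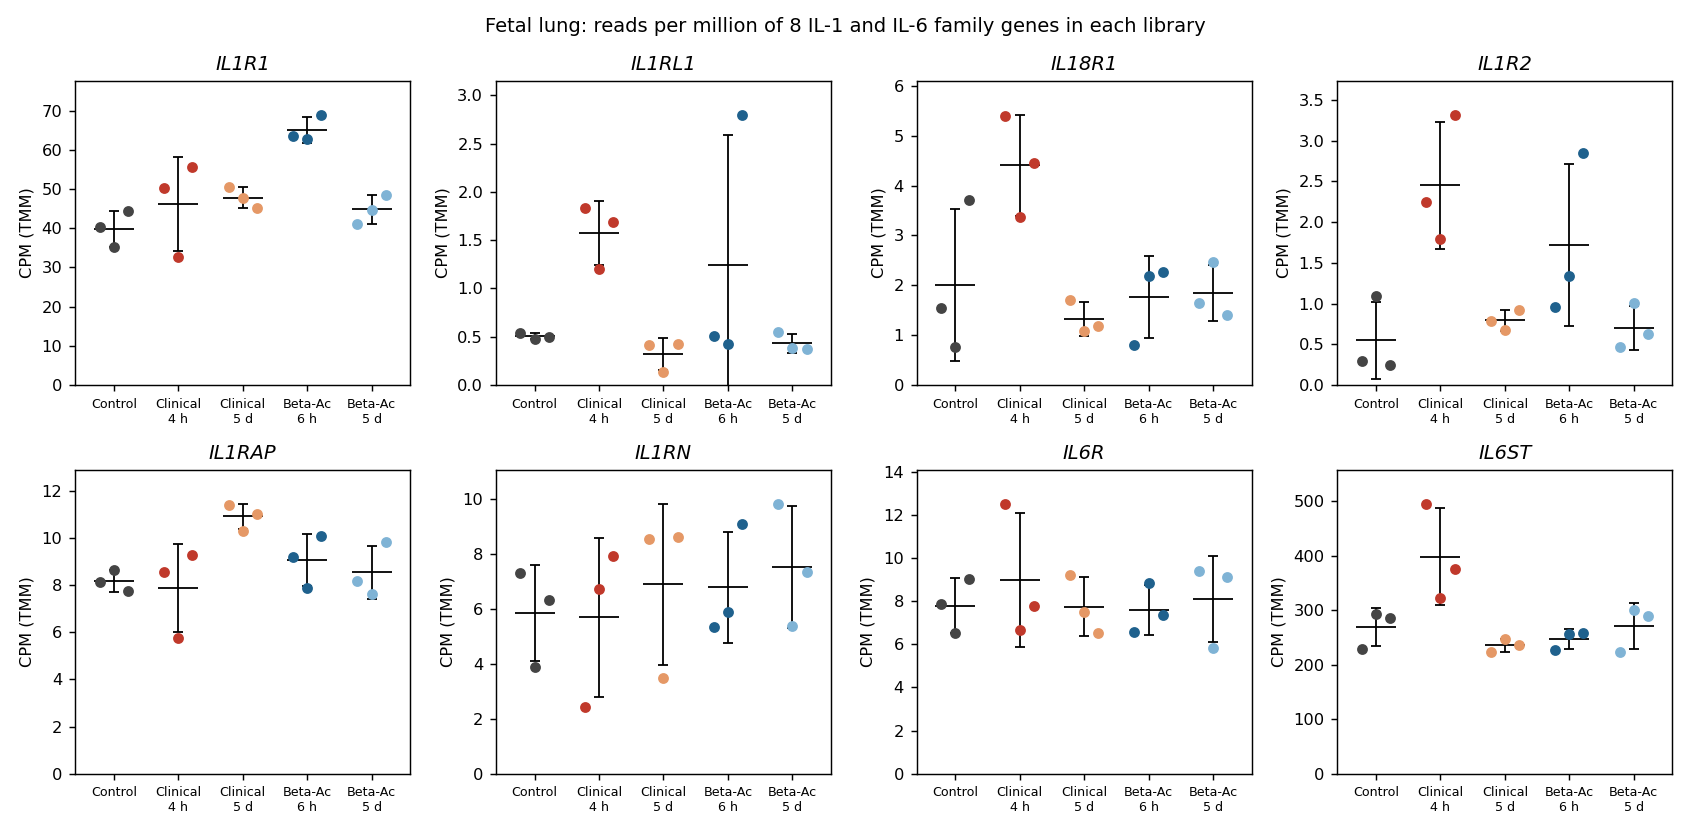
Scaled read counts (CPM, TMM, linear axis from 0) of the 8 matched genes in each of the 15 lung libraries. Points are fetuses, the horizontal bar is the group mean and the error bar 1 SD (n = 3), clipped at 0 for IL1RL1 after Beta-Ac. The group means of IL1R2, IL1RL1, IL18R1 and IL6ST are highest 4 h after the clinical drug, and that of IL1R1 is highest 6 h after Beta-Ac.

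The question asked of the early lung was how far each drug had moved these genes within hours of the injection. IL1R2 (ENSMMUG00000020739), the decoy receptor, rose 4.58-fold 4 h after the clinical drug. It was at 0.297, 1.095 and 0.251 CPM in the controls, at 2.25, 1.795 and 3.32 CPM at 4 h, and at 0.961, 1.34 and 2.85 CPM 6 h after Beta-Ac. Every 4 h library was above every control, whereas the lowest Beta-Ac library was below control replicate 2.

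The counts behind IL1R2 were small, 5 to 16 reads per control library and 24 to 97 reads per 4 h library. The log2 fold change at 4 h was 2.19 ± 0.56 (SE), with a 95% interval from 0.99 to 3.40 and an adjusted p of 0.0236 (edgeR quasi-likelihood test, Storey adjustment). A gene is said here to rise or fall when its fold change was at least 1.5, its p under 0.05 and its adjusted p under 0.1. Over all genes tested, 7.4% met these criteria at 4 h (1306 genes, 611 higher and 695 lower). Of the 8 genes followed, IL1R2 alone did, and 4 had an unadjusted p under 0.05, as did 3301 of the 17644 genes tested. The median log2 fold change of the 8 was 0.39, beside 0.02 over all genes tested. Without control replicate 1, IL1R2 stood at 1.89 with an adjusted p of 0.101, and no other library took the call away. Without control replicate 2, the highest control, the rise was 8.83-fold (log2 3.14).

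At 6 h after Beta-Ac, IL1R2 was 3.20-fold above the controls, a log2 fold change of 1.68 (95% interval 0.47 to 2.89) whose adjusted p of 0.244 missed the threshold. The clinical drug at 4 h differed from Beta-Ac at 6 h by 0.52 on the log2 scale, with an interval from -0.57 to 1.60. Neutrophils carry much IL1R2 and are a possible source of it. The summed level of 7 neutrophil markers was 29.1 to 40.7 CPM in controls, 28.1 to 52.7 CPM at 4 h and 49.4 to 63.2 CPM at 6 h. By the criteria 1 of the 7 was higher at 4 h than in controls, where 7.4% of all genes were called. Against Beta-Ac at 6 h 2 of the 7 were lower at 4 h, where 6.74% were called. The part of neutrophils in the IL1R2 values was not tested.

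IL1RL1 (ENSMMUG00000009238), the interleukin-33 receptor, was close to its detection limit in the controls. It gave 0.535, 0.479 and 0.502 CPM there, on 7 to 10 reads per library. The 4 h libraries held 1.83, 1.196 and 1.69 CPM, all above all controls. After Beta-Ac the 3 libraries differed among themselves, with 0.506 and 0.425 CPM in replicates 1 and 2 and 2.80 CPM in replicate 3.

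The fold changes of IL1RL1 against control were 3.11 at 4 h and 2.42 at 6 h. With log2 fold changes of 1.64 (interval 0.26 to 3.02, adjusted p = 0.119) and 1.27 (interval -0.11 to 2.66, adjusted p = 0.357), neither passed the edgeR test. Without Beta-Ac replicate 3 the 6 h difference was -0.13 on the log2 scale. IL1RL1 is strongly expressed by mast cells. Summed CPM of 5 mast cell and basophil markers was 92.3 to 127 in controls and 120 to 208 at 4 h. At 6 h after Beta-Ac it was 126 in replicate 1, 158 in replicate 2 and highest in replicate 3. The sum of that replicate 3 was the highest in lung, but only just above the 208 CPM of clinical 4 h replicate 3. IL1RL1 was at 1.69 CPM in clinical 4 h replicate 3 and at 0.425 CPM in Beta-Ac replicate 2. The contribution of such cells was not tested.

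Beta-Ac replicate 3 set the comparison of the drugs for this gene. With it, IL1RL1 was 0.36 higher on the log2 scale after the clinical drug (adjusted p = 0.475 by edgeR). Without it, the difference was 1.76 with an adjusted p of 0.0468. That library also held 45.1 CPM of LIFR and 89.4 CPM of OSMR, the highest values of its group for both. Its sum of 3 erythroid markers, 171 CPM, was above all other lung libraries (17 to 82.8 CPM). Its sum of 5 mesenchyme markers, 9950 CPM, was the lowest in lung. The part of its cell make-up in these values was not tested.

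IL18R1 (ENSMMUG00000009244), the ligand-binding chain for interleukin-18, varied more among the controls than within any other lung group (SD 1.53 CPM). Its control values were 1.55, 0.753 and 3.71 CPM, and the 4 h values 5.396, 3.365 and 4.44 CPM, so that the groups overlapped. At 6 h after Beta-Ac it gave 0.810, 2.19 and 2.27 CPM, and every one of these lay below every 4 h value. The difference between the drugs was 1.32 ± 0.49 (SE) on the log2 scale, 2.50-fold, and it passed with an adjusted p of 0.0911 in edgeR. The difference was not called in any fit that left out 1 library of these groups, where it ranged from 0.99 to 1.54.

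Against control, IL18R1 was 2.18-fold higher at 4 h (log2 1.12, interval 0.06 to 2.18, adjusted p = 0.161 by edgeR). Leaving out control replicate 3, the highest, brought it to 1.93 with an adjusted p of 0.0367. After Beta-Ac the log2 fold change was -0.20, with an interval from -1.27 to 0.87. T and NK cells express IL18R1, and their 5 measured markers summed to 11.1 to 22.2 CPM in controls, 4.86 to 12 CPM at 4 h and 9.56 to 21.4 CPM at 6 h. Of these markers 2 fell at 4 h and none rose, where 7.4% of all genes were called in either direction. The part of such cells in the IL18R1 values was not tested. The partner chain IL18RAP had 21 reads or fewer in every lung library and a log2 fold change of -0.74 ± 0.76 (SE) at 4 h.

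IL1R1 (ENSMMUG00000020737), the signalling receptor of interleukin-1, was highest in the other early group. The controls held 40.3, 35.1 and 44.3 CPM, the Beta-Ac 6 h libraries 63.65, 62.7 and 69.0 CPM, and the clinical 4 h libraries 50.2, 32.75 and 55.65 CPM. The 6 h group lay above all other lung libraries, 62.7 CPM being its lowest value. The 4 h group overlapped the controls.

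IL1R1 rose 1.63-fold 6 h after Beta-Ac, a log2 fold change of 0.70 ± 0.16 (SE), with an interval from 0.37 to 1.04 and an adjusted p of 0.0810 in edgeR. Only 0.442% of genes (78 of 17644) met the criteria in this comparison, and IL1R1 was the only one of the 8 receptors and partners to do so. At unadjusted p under 0.05 there were 2, IL1R1 and IL1R2, beside 2021 of the 17644 genes tested. The call did not survive Benjamini-Hochberg adjustment (adjusted p = 0.107). It was lost without each of the 3 controls in turn, without Beta-Ac replicate 1 and without Beta-Ac replicate 3, where the log2 fold change stayed between 0.62 and 0.79 and the adjusted p ran from 0.106 to 0.407. At 4 h after the clinical drug the log2 fold change was 0.21, with an interval from -0.12 to 0.55. The direct difference, clinical drug minus Beta-Ac, was -0.49 (interval -0.82 to -0.16, adjusted p = 0.0555 by edgeR), short of the fold threshold.

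IL6ST (ENSMMUG00000001893), the shared gp130 subunit, was higher 4 h after the clinical drug than in any other lung group. It was at 229.5, 293 and 286 CPM in the controls, at 495, 322 and 376 CPM at 4 h, and at 227, 257 and 258 CPM at 6 h after Beta-Ac. The 4 h libraries lay above all of the others, and the Beta-Ac libraries lay within the control range or just below it. Clinical replicate 1, the deepest lung library, held the highest value.

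The difference in IL6ST between the drugs was 1.61-fold (log2 0.69 ± 0.15 SE, adjusted p = 0.0175 by edgeR). In this comparison 6.74% of genes met the criteria, and 2 of the 8 followed did, IL18R1 and IL6ST. Against control the rise was 1.48-fold, just under the fold threshold, with a log2 fold change of 0.56 (interval 0.23 to 0.89) and an adjusted p of 0.0312. Without clinical replicate 1 the difference between the drugs was 0.49 and no longer reached 1.5-fold, though its adjusted p remained 0.0352. The epithelial marker sums at 4 h did not overlap those of the controls and overlapped those at 6 h. Drug, dose and time after injection all differed between these groups and cannot be told apart.

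The other 3 genes showed no difference that passed in the early lung. IL6R (ENSMMUG00000022978), which binds interleukin-6 itself, averaged 7.80 ± 1.27 (SD, n = 3) CPM in controls, 8.98 ± 3.12 at 4 h and 7.60 ± 1.15 at 6 h. IL1RAP (ENSMMUG00000022562) averaged 8.17 ± 0.448, 7.86 ± 1.86 and 9.06 ± 1.102 CPM in the same order. IL1RN (ENSMMUG00000013014) averaged 5.85 ± 1.76, 5.70 ± 2.90 and 6.80 ± 2.03 CPM. Their groups overlapped in both comparisons with control. The intervals for IL1RN, from -1.01 to 0.89 at 4 h and from -0.73 to 1.15 at 6 h on the log2 scale, were wide.

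**Figure D2:**
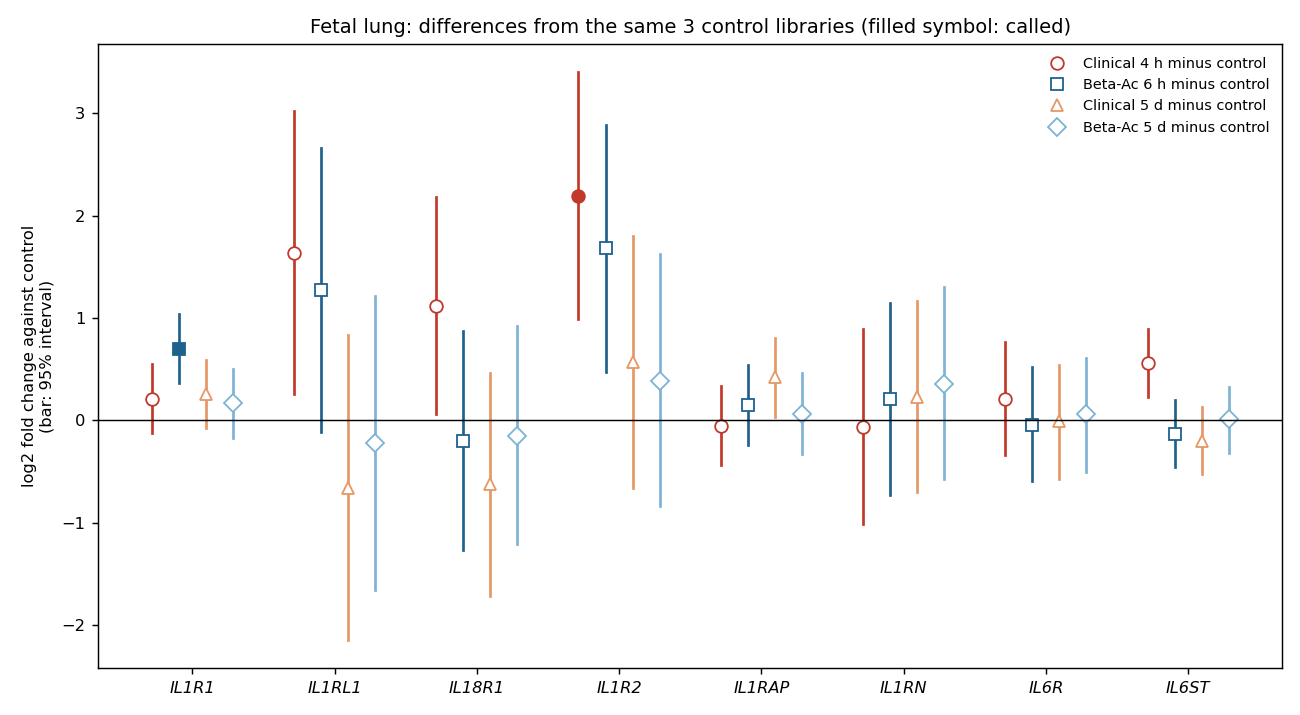
Log2 fold changes of the 8 genes against the same 3 control libraries in the 4 treated lung groups, with 95% intervals; filled symbols met the criteria. IL1R2 at 4 h after the clinical drug (2.19) and IL1R1 at 6 h after Beta-Ac (0.70) are the filled ones, and at 5 days no symbol is filled.

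At 5 days the question was whether these levels still differed from the controls. Against the same controls, 0 of the 8 genes met the criteria after the clinical drug, where 0% of all genes did. Of the 8, 1 had an unadjusted p under 0.05, as did 775 of the 17644 genes tested. After Beta-Ac 0 of the 8 met the criteria, where 0.00567% of all genes did (1 gene). There 0 of the 8 were at unadjusted p under 0.05, beside 1133 of all genes tested. DESeq2 called 0 of the 8 in either comparison and 16 and 38 genes in all. Directly between the drugs at 5 days edgeR called 0 of the 8, with 0% over all genes and again 0 of the 8 in DESeq2. In that comparison 0 of the 8 were at unadjusted p under 0.05, beside 556 of all genes tested.

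IL1R2 stood at 0.784, 0.674 and 0.921 CPM 5 days after the clinical drug and at 0.469, 1.00 and 0.627 CPM after Beta-Ac, all below the highest control. IL1RL1 was at 0.415, 0.135 and 0.422 CPM after the clinical drug, all below the lowest control, on 4 to 11 reads. IL1R1 was at 50.7, 47.8 and 45.1 CPM after the clinical drug, each above the highest control, a log2 fold change of 0.26 with an interval from -0.07 to 0.59.

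IL1RAP, the co-receptor shared by IL1R1 and IL1RL1, was the gene with the unadjusted p under 0.05. It reached 11.4, 10.3 and 11.02 CPM 5 days after the clinical drug against 8.15, 8.63 and 7.73 CPM in controls, without overlap. This was a log2 fold change of 0.42 ± 0.18 (SE) with an adjusted p of 0.931 in edgeR. After Beta-Ac the values were 8.17, 7.64 and 9.805 CPM, which overlapped the controls.

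Between 4 h and 5 days after the clinical drug, IL1R2, IL1RL1, IL18R1 and IL6ST were all higher at 4 h, 4 of the 8 genes, where 10.4% of all genes met the criteria. They were measured in the same 4 h libraries as the comparisons above. IL1RL1 was 4.91-fold higher (log2 2.30 ± 0.65 SE, adjusted p = 0.0265), IL18R1 3.35-fold (1.74 ± 0.50, adjusted p = 0.0281) and IL1R2 3.08-fold (1.62 ± 0.53, adjusted p = 0.0464). IL6ST was 1.69-fold higher (0.76 ± 0.15, adjusted p = 0.00491). All of the 4 h libraries exceeded all of the 5-day libraries for each of the 4, which were picked by their calls in this comparison. For IL1RAP all of the 4 h libraries lay below all of the 5-day libraries. How many of all genes tested were apart in this way was not counted.

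Clinical 5-day replicate 2, in which IL1RL1 was lowest, was needed for 3 of these calls. Without it the adjusted p was 0.144 for IL1R2, 0.111 for IL1RL1 and 0.107 for IL18R1, at log2 fold changes of 1.52, 1.91 and 1.61. The IL1R2 call was also lost without clinical 4 h replicate 3 (adjusted p = 0.127) and without clinical 5-day replicate 1 (adjusted p = 0.124). IL6ST kept its call in these 3 fits and lost it without clinical 4 h replicate 1, at 0.55. IL1RAP was lower at 4 h than at 5 days, by a log2 fold change of -0.47 (adjusted p = 0.0833) that fell short of 1.5-fold.

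For Beta-Ac, 0 of the 8 differed between 6 h and 5 days by the criteria, where 0.261% of all genes did. Of the 8, 3 had an unadjusted p under 0.05, as did 1396 of the 17644 genes tested. IL1R1 was 1.45-fold higher at 6 h (log2 0.54, interval 0.21 to 0.87, adjusted p = 0.248 by edgeR), IL1R2 2.44-fold (interval 0.15 to 2.42 around 1.29) and IL1RL1 2.82-fold (interval 0.14 to 2.85 around 1.5). Without Beta-Ac 6 h replicate 3 the IL1RL1 difference was 0.09 and that of IL1R2 0.72 on the log2 scale. DESeq2 called 0 of the 8 as well. Whether the change over time differed between the drugs was not tested.

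The remaining genes of both pathways were followed through 8 lists with 59 genes: ligands, the other receptors, the proteins that relay the signal, the inflammasome and caspase genes that process interleukin-1 beta and interleukin-18, and the sheddases. A row was matched for 38 in lung, and 35 of them passed the read minimum. In the comparison of the 4 h clinical group with controls, 2 of the 35 rose and 4 fell, where 7.4% of all genes were called. With Beta-Ac at 6 h against control 0 of the 35 met the criteria, where 0.442% of all genes did, and likewise 0 of the 35 at 5 days after either drug, where 0% (clinical drug) and 0.00567% (Beta-Ac) did.

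IL33, the ligand of IL1RL1, fell at 4 h. It was at 111, 176 and 234 CPM in the controls and at 87.5, 84.6 and 74.8 CPM at 4 h, with no overlap. The log2 fold change was -1.08 ± 0.23 (SE), with an adjusted p of 0.0102 in edgeR, and the call held in all 13 alternative fits. At 6 h after Beta-Ac the values were 177, 135 and 99.97 CPM, a log2 fold change of -0.34 (adjusted p = 0.450), and the clinical drug was lower than Beta-Ac by a log2 fold change of -0.74 (adjusted p = 0.0570).

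OSMR, the oncostatin M receptor that pairs with IL6ST, rose 4 h after the clinical drug. Its control values were 40.9, 36.8 and 50.1 CPM and its 4 h values 127, 73.5 and 91.2 CPM, again without overlap. The log2 fold change was 1.19 ± 0.22 (SE), with an adjusted p of 0.00370 in edgeR, and all 13 alternatives kept the call. The epithelial marker sums were also higher at 4 h than in controls, and their part in the OSMR and IRAK1 values was not tested. OSMR was at 51.9, 50.2 and 89.4 CPM 6 h after Beta-Ac, each just above or well above the highest control. The log2 fold change there was 0.58 with an adjusted p of 0.278.

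LIFR, the other receptor chain that works with IL6ST, was uneven. It gave 33.1, 32.15 and 14.7 CPM at 4 h, 6.54, 27.25 and 15.9 CPM in controls and 10.6, 9.61 and 8.445 CPM 5 days after the clinical drug. It was called against 5 days (log2 1.49 ± 0.54 SE, adjusted p = 0.0684 by edgeR) but not against control (0.69, adjusted p = 0.374). The call against 5 days was lost in 7 of 13 alternative fits. IL27RA, which also signals through IL6ST, was lower at 4 h after the clinical drug than at 6 h after Beta-Ac, at 13.7 ± 0.873 against 20.8 ± 0.924 CPM (SD, n = 3 each, log2 -0.61, adjusted p = 0.0239).

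Among the genes that relay the signal, IRAK1, a kinase bound by MYD88, rose from 32.7 ± 3.51 CPM in controls to 51.1 ± 0.756 CPM at 4 h (SD, n = 3 each). Its log2 fold change was 0.64 ± 0.11 (SE) with an adjusted p of 0.00230 in edgeR. IRAK2, a related kinase, fell from 2.03 ± 0.259 to 1.09 ± 0.309 CPM (log2 -0.86, adjusted p = 0.0697). The others of this list, 8 of 10, did not meet the criteria.

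NLRP3, the sensor of the inflammasome that matures interleukin-1 beta, fell from 1.265 ± 0.0392 to 0.583 ± 0.192 CPM (log2 -1.09, adjusted p = 0.0793). SOCS1, an inhibitor of cytokine receptor signalling, fell from 4.84 ± 0.515 to 2.23 ± 0.213 CPM (log2 -1.12, adjusted p = 0.0965). The calls for IRAK2, NLRP3 and SOCS1 were lost in 8 of 13 alternatives each. STAT3, the transcription factor downstream of IL6ST, had a log2 fold change of 0.46 at 4 h with an adjusted p of 0.0354, which was under the fold threshold.

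Between the early groups, 1 of the 35 was higher after the clinical drug and 4 were lower, where 6.74% of all genes were called. Beside IL33 and IL27RA these were OSMR (log2 0.61, adjusted p = 0.0824), IRAK2 (-1.12, adjusted p = 0.0270) and NLRP3 (-1.04, adjusted p = 0.0827). Of 13 alternative fits, the call between the early groups was lost in 7 for OSMR, 5 for NLRP3 and 4 for IL33. It was lost in 2 for IL27RA and 1 for IRAK2. Between 4 h and 5 days after the clinical drug 2 were higher at 4 h and 4 lower, where 10.4% were called. These were LIFR and OSMR (0.77, adjusted p = 0.0268) on the higher side, and IL33 (-0.90, adjusted p = 0.0176), IRAK2 (-0.98, adjusted p = 0.0285), NLRP3 (-0.99, adjusted p = 0.0740) and SOCS1 (-1.17, adjusted p = 0.0591) on the lower. Here the call was lost in 7 of 13 alternative fits for NLRP3 and 5 for SOCS1. For OSMR and IRAK2 it was lost in 1 each, and for IL33 in 0. In both of the other comparisons between treated lung groups 0 of the 35 met the criteria. Of all genes 0.261% did between 6 h and 5 days after Beta-Ac, and 0% between the drugs at 5 days.

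Interleukin-6 itself was barely transcribed in the lung. IL6 had 2, 3 and 7 reads in the controls, 18, 3 and 17 at 4 h and 10, 21 and 21 at 6 h after Beta-Ac. The 6 h libraries were all above the control range, 0.506 to 1.01 against 0.119 to 0.351 CPM. Its log2 fold change of 1.69 ± 0.70 (SE) had an adjusted p of 0.298 in edgeR. The oncostatin M gene, OSM, had 13 reads or fewer in every lung library.

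**Figure D3:**
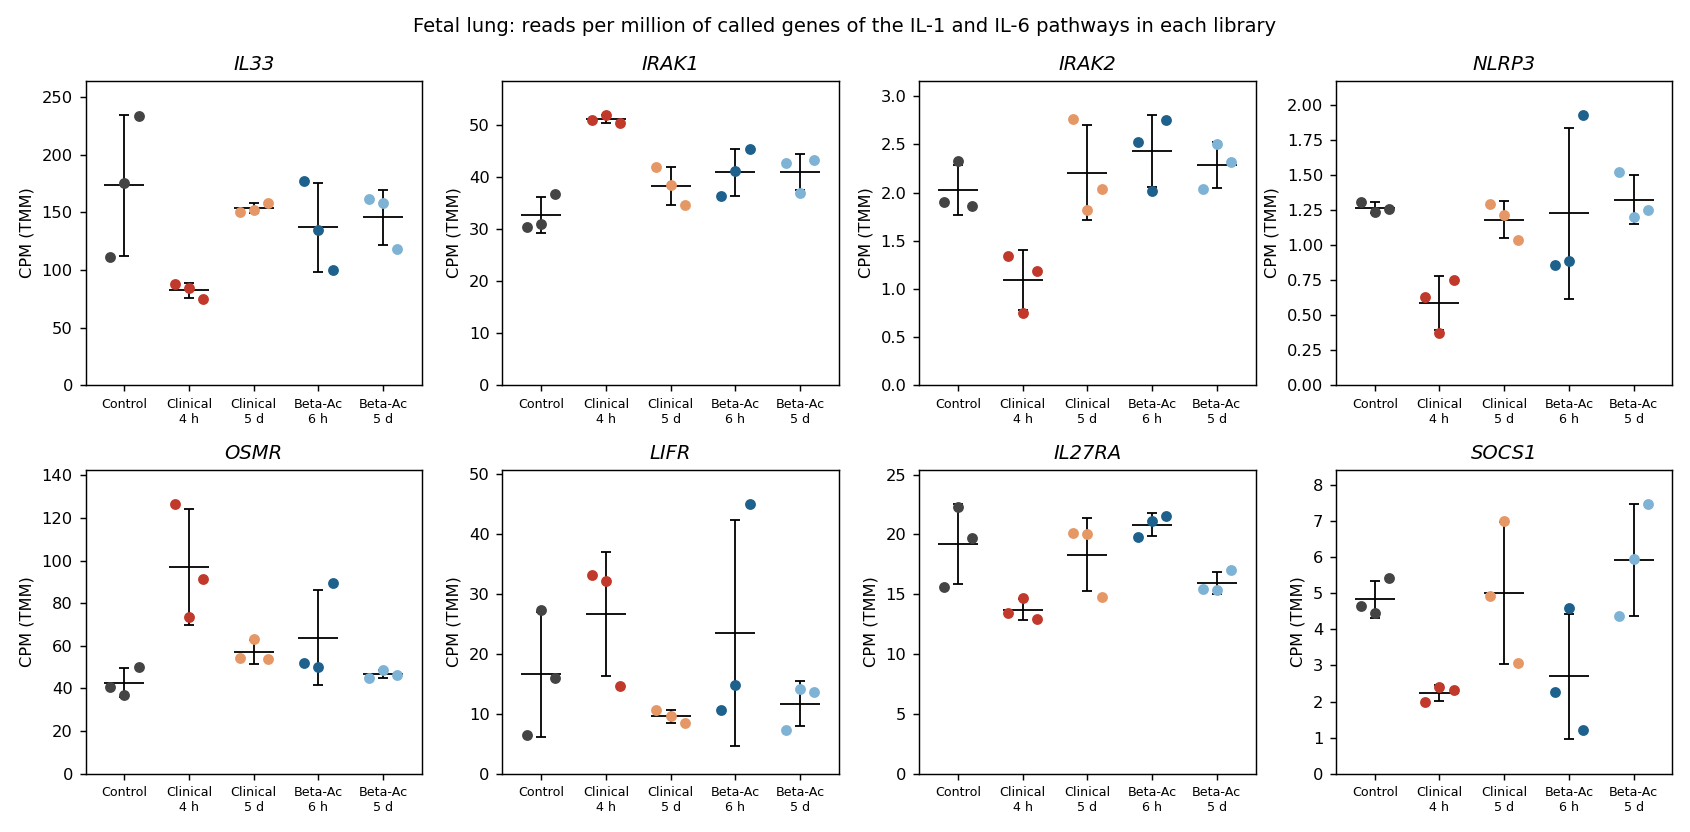
Scaled read counts (CPM, TMM, linear axis from 0) in each of the 15 lung libraries for the 8 pathway genes called in at least 1 lung comparison. Points are fetuses, the horizontal bar is the mean and the error bar 1 SD (n = 3). IL33, IRAK2, NLRP3 and SOCS1 are lower and OSMR and IRAK1 higher in the clinical 4 h group than in the controls.

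Genes that followed the same course as a receptor were sought among 12455 named genes by Pearson's r of log2 CPM over the 15 lung libraries, as a description. For IL1R2 the closest were GADD45B, TSPAN14 and CDC25B (r = 0.90 each). IL6ST was closest to HYCC1 and SOS2 (0.92 each) and to PLEKHG1 (0.91). IL18R1 went with ASB13 (0.92), DCAF6 (0.91) and TTC23 (0.88), IL1RL1 with MATN3, BNIP3 and PLEKHF1 (0.92 each), and IL1R1 with HDAC9 (0.90), GALNT11 (0.84) and DUSP16 (0.81). The 15 points share the groups and the libraries, so genes that differ between the same groups are drawn together.

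In the hippocampus the comparison asked whether the same genes differed 5 days after treatment. IL1R1 was low and uneven there. In the CTL libraries it was at 2.95, 2.37, 1.60, 1.15 and 6.00 CPM, in the BAC libraries at 2.46, 1.94, 1.11, 0.618 and 2.58 CPM, and in the CEL libraries at 1.72, 1.13, 0.891, 0.919 and 2.12 CPM. The groups overlapped, and the highest value belonged to the CTL library with choroid plexus markers.

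IL1R1 was 2.08-fold lower in CEL than in CTL, a log2 fold change of -1.06 ± 0.46 (SE) with an interval from -2.03 to -0.08. With an adjusted p of 0.132 (edgeR, Benjamini-Hochberg) it did not meet the criteria. Without library CTL212 it was -0.58 with an adjusted p of 0.370. That library also held the most endothelial marker signal, 360 CPM against 127 to 240 CPM in the other hippocampus libraries, and 1020 CPM of 5 mesenchyme markers against 306 to 632 CPM. In CEL against CTL 3 of these 5 markers fell, COL1A1, COL3A1 and DCN, where 7.86% of all genes were called. All 3 choroid plexus markers fell as well. Whether the marker calls held without CTL212 was not tested. Whether any of these cell types gave the IL1R1 reads was not tested. With sequencing run in the model the log2 fold change was -1.37 (adjusted p = 0.147), and within the 2 runs that held all groups it was -1.34 (adjusted p = 0.178). Those runs hold only 2 CTL libraries, of which CTL212 is 1.

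IL6R was lower in CEL than in CTL on a similar footing. It was at 1.35, 0.817, 1.76, 1.63 and 1.401 CPM in CTL, at 1.30, 0.824, 0.8335, 0.232 and 1.56 CPM in BAC, and at 0.590, 0.978, 0.972, 0.700 and 0.671 CPM in CEL. Of the CTL libraries, 4 of 5 lay above all CEL libraries. On average it was 1.77-fold lower, a log2 fold change of -0.83 ± 0.38 (SE) with an adjusted p of 0.153 in edgeR. With run in the model it was -1.03 (adjusted p = 0.210).

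For CEL against CTL, 7.86% of all genes tested met the criteria (1366 genes, 435 higher and 931 lower), and 0 of the 7 tested receptors and partners did. Of the 7, 2 had an unadjusted p under 0.05, as did 5322 of the 17390 genes tested. DESeq2 called 1 of the 7, IL1R1, with an adjusted p of 0.0970. In the comparison of BAC with CTL edgeR called 0 of 7, with 0% of all genes. There 0 of 7 were at unadjusted p under 0.05, beside 2133 of all genes tested. The comparison of CEL with BAC gave 0 of 7, 0% and 0 of 7 in the same order, the last beside 2346 of all genes tested. DESeq2 also called 0 of 7 in both of these comparisons.

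**Figure D4:**
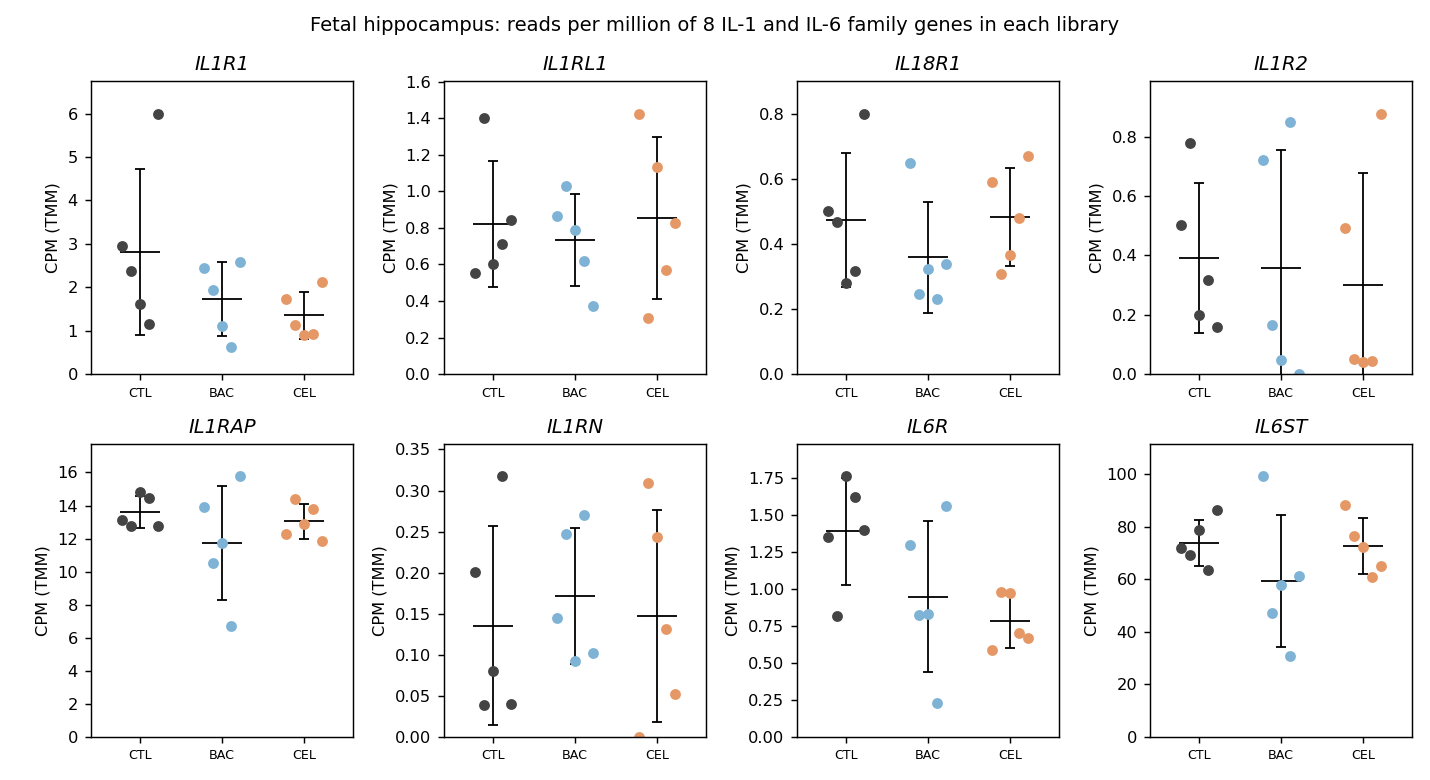
Scaled read counts (CPM, TMM, linear axis from 0) of the 8 matched genes in each of the 15 hippocampus libraries, grouped by library name. Points are fetuses, the horizontal bar is the mean and the error bar 1 SD (n = 5), clipped at 0 where it would pass below. The groups overlap for all 8 genes, and the high IL1R1 point in CTL, 6.00 CPM, is the library with choroid plexus markers.

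IL6ST and IL1RAP were measured on 174 or more reads in every hippocampus library. IL6ST averaged 73.9 ± 8.85 CPM in CTL, 59.3 ± 25.3 in BAC and 72.55 ± 10.7 in CEL (SD, n = 5 each). IL1RAP averaged 13.6 ± 0.976, 11.7 ± 3.46 and 13.04 ± 1.05 CPM in the same order. In CEL against CTL their log2 fold changes were -0.03 (interval -0.49 to 0.44) and -0.06 (interval -0.43 to 0.31). Library BAC235 was the lowest of all hippocampus libraries for both, at 30.8 CPM of IL6ST and 6.72 CPM of IL1RAP.

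IL1R2, IL1RL1, IL18R1 and IL1RN were near the limit of detection in hippocampus. IL1R2 ranged from 0 to 22 reads per library and IL1RL1 from 6 to 36, while IL18R1 had 6 to 20 and IL1RN 0 to 8. IL1R2, the gene that rose in lung, averaged 0.391 ± 0.253 CPM in CTL, 0.357 ± 0.399 in BAC and 0.301 ± 0.376 in CEL. Its interval for CEL against CTL, from -2.39 to 1.57 on the log2 scale, was wide. Without library CEL245 the log2 fold change was -1.33 in place of -0.41.

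Of the other pathway genes 42 were matched in hippocampus and 35 tested. In CEL against CTL 0 rose, where 435 of the 17390 genes tested rose and 931 fell. TAB3 fell. This gene, an adaptor of the kinase complex below the interleukin-1 receptor, was at 1.72 ± 0.409 CPM in CTL and 0.857 ± 0.212 CPM in CEL (SD, n = 5 each, log2 -1.0 ± 0.31 SE, adjusted p = 0.0437). With run in the model TAB3 stood at -0.84 (adjusted p = 0.214). In BAC against CTL and in CEL against BAC 0 of the 35 met the criteria, where 0% of all genes did in each.

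Between tissues the levels can only be set side by side, since the tables were normalised separately. IL1R1 ran from 32.75 to 69.0 CPM in lung and from 0.618 to 6.00 CPM in hippocampus. IL6ST ran from 222 to 495 and from 30.8 to 99.2 CPM, and IL6R from 5.83 to 12.5 and from 0.232 to 1.76 CPM. IL1RAP, with 5.76 to 11.4 CPM in lung and 6.72 to 15.8 CPM in hippocampus, had overlapping ranges. The ranges of IL1R2, IL1RL1 and IL18R1 also overlapped, on few reads in hippocampus, and those of IL1RN did not.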

How the data were processed

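Values used were the deposited whole-read counts per Ensembl gene, which the authors made before their own filter and normalization. Reads were 75 bp, paired-end, from poly(A) RNA. The submitters' notes name Bowtie 1.2.1.1 and featureCounts 1.5.1 for lung and Bowtie2, featureCounts and edgeR, without versions, for hippocampus, whereas the study's methods give Bowtie 2 and MMUL1.0. Whether counting used strand is not given in the sources used here, so reads from a gene and an antisense partner cannot be told apart.

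Gene names came from a table of Ensembl identifiers and symbols. The 10 genes and the lists of pathway genes and cell type markers were chosen with earlier results of these data known. All 10 genes are described in every group. Other pathway genes are named with values where they met the criteria, to a limit of 12 per comparison, and otherwise counted. The hippocampus result of 1 listed gene is not reported here. IL6, OSM, STAT3, IL18RAP and the pathway genes' values in other comparisons were added after their values were seen, as partners or ligands of the 10. For each gene called in lung, the 3 named genes with the highest Pearson r over the lung libraries are given.

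Each tissue was fitted once, over its 15 libraries, with the quasi-likelihood test of edgeR 4.0.16 in R 4.3.3, after TMM scaling. The read minimum was 7 in at least 3 libraries for lung and 5 for hippocampus. Calls needed a 1.5-fold change, p under 0.05 and an adjusted p under 0.1 (Storey in lung, Benjamini-Hochberg in hippocampus). The prior count was 0.125 for fold changes and 2 for log2 CPM. Standard errors are the log2 fold change divided by the square root of its F statistic. Libraries held 14.1 to 45 M (lung) and 18.3 to 29.3 M (hippocampus) counted reads, and the spread between animals sets the precision. The procedure was tested on simulated counts. Alternatives were RLE scaling, filterByExpr, no read filter, no fold threshold, the other adjustment, only the compared groups, DESeq2 1.42.0, each animal left out and, in hippocampus, sequencing run. The same alternatives were run on the named pathway genes, a choice made after seeing the data. No genome sequence was used.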

Additional observations from a re-analysis of the deposited data

Results flagged for a closer look

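In 6 instances the level of a gene differed directly between treated groups. IL18R1 was higher 4 h after the clinical drug than 6 h after Beta-Ac by a log2 fold change of 1.32 and IL6ST by 0.69. Against the 5-day clinical group, the 4 h group was higher by 1.62 for IL1R2, 2.30 for IL1RL1, 1.74 for IL18R1 and 0.76 for IL6ST. These are differences between treated groups in the same edgeR fit, and all 6 lost their call in at least 1 fit that left out 1 library of the groups compared. In hippocampus, IL18R1 was at 0.65 CPM (18 reads) in library BAC128, apart from the other 4 BAC libraries at 0.232 to 0.339 CPM. Its gap to the nearest library was 0.743 of the group's range, and chance alone marks about 1 group in 20 this way. All 8 matched genes were screened in each of the 3 hippocampus groups, and this was the only mark.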

How the results depend on the processing

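For the 4 h clinical drug against control, 1 of the 8 genes was called, and 2 were without a fold threshold (IL6ST added) and in a fit of only these groups (IL1RL1 added). Leaving out 1 animal gave 0 to 3. For Beta-Ac at 6 h against control, 1 was called, and 0 with Benjamini-Hochberg adjustment or with only these groups, and 0 to 1 without 1 animal. Between the early clinical and early Beta-Ac groups, 2 were called, and 1 without a read filter, with Benjamini-Hochberg adjustment or with only these groups, in each case IL6ST, 3 without a fold threshold (IL1R1 added), and 0 to 2 without 1 animal. Between 4 h and 5 days after the clinical drug, 4 were called, 5 without a fold threshold (IL1RAP added), and 1 to 4 without 1 animal. For CEL against CTL 0 were called, 1 with DESeq2, 2 with Storey adjustment (IL1R1 and IL6R) and 1 with only these groups (IL6R, adjusted p = 0.0485), and 0 to 1 without 1 animal. The other 6 comparisons gave 0 of the 8 (7 in hippocampus) under every alternative run. Over all 85 pairs of gene and comparison, the sign turned in at least 1 alternative for 33, none of them called as reported. Of pairs called in any alternative this was only IL1RL1 between the early groups. It was 0.36 with all libraries, 0 without Beta-Ac replicate 1, -0.05 without replicate 2 and 1.76 without replicate 3. Within a tissue each library was a different fetus, so the groups compared were not paired. The 9 animals that gave both tissues were not used for a paired comparison between tissues. Animal numbers fall into series that go with the lung groups in part. The 4 h clinical animals were 15-81, 15-85 and 15-97, and the controls 15-92, 15-101 and 16-113. The Beta-Ac 6 h animals were 16-123, 16-131 and 17-254, and all animals of both 5-day groups were in the series of 16-113. What the series mark was not given, so it cannot be told apart from treatment. Each lung group had 3 libraries, and several libraries held under 20 reads of IL1R2, IL1RL1 or IL18R1. Smaller differences in these 3 genes than those called could have been missed. Some differences missed only the fold threshold, among them IL6ST at 4 h against control (log2 0.56, adjusted p = 0.0312 by edgeR).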
